A study of Mus musculus with 8 samples.

Results

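The change in gene expression during normal adipogenic differentiation was examined in the control line of the series, with the library taken at day 5 set against the library taken at day 0. All genes with an RPKM (the reads of a gene corrected for its exon length and for the mapped reads of the library) over 1 in at least 1 of these libraries were kept, which left 10960 of the 41325 genes listed. Of the genes kept, 10572 are annotated as protein coding. The cells were C3H10T1/2, a mouse mesenchymal stem cell line, carrying the control shRNA (shControl) and labelled with the genotype WT. Like the knockdown lines of the series, shKDM4D, shNFIB and shMLL1, they received their shRNA in a lentiviral vector and were selected with puromycin. The knockdown lines were made from isolated resistant clones, according to the study's methods. Whether the shControl line came from a single clone is not given in the sources used here. The day 0 cells had been confluent for 2 days and had received no inducer. From day 0 to day 2 the other cells were given 10 µg/ml insulin, 1 µM dexamethasone and 0.5 mM isobutylmethylxanthine in 10% FBS, then insulin alone for 2 days, and then plain FBS medium, so that dexamethasone and isobutylmethylxanthine were not added after day 2.

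Adipogenesis is the process by which a fibroblast-like precursor becomes a lipid-storing fat cell. Dexamethasone acts on the glucocorticoid receptor, isobutylmethylxanthine raises cyclic AMP, and insulin acts through the insulin and IGF receptors. Together they switch on C/EBPβ and C/EBPδ, which in turn switch on PPARγ and C/EBPα, the factors that hold the adipocyte programme in place. Mature adipocytes take up and synthesize fatty acids, store them as triglyceride in perilipin-coated droplets, and secrete hormones such as adiponectin.

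Each condition was represented by 1 library, so no difference between days can be tested in the control line and no p-value is given. The day 0 library held 26600000 mapped reads and the day 5 library 19300000, as recovered from the RPKM values and the exon lengths. For an exon length of 1 kb, a floor of 3 reads equals an RPKM of 0.113 at day 0 and of 0.155 at day 5. A change is given as the log2 of (RPKM + 0.1) at day 5 over (RPKM + 0.1) at day 0, and a gene was called higher or lower past a 2-fold change. The intervals beside the changes are exact 95% (Clopper-Pearson) intervals of the log2 ratio of the reads, without the added 0.1. They cover counting error only and not the variation between cultures. A pair of genes that collect reads of ribosomal RNA, AY036118 and CT010467.1, together took 10.2% of the reads at day 0 and 3.14% at day 5. AY036118 lies within CT010467.1 on the same strand. If reads were counted in both genes, these sums and the rescaling based on them are too large. The part of this difference in the other values was not tested, but with the remaining reads alone as the base the median change moved from 0.03 to −0.08.

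Between day 0 and day 5, 1302 of the 10960 genes (11.9%) were called higher and 863 (7.87%) were called lower, whereas 8795 (80.2%) stayed within 2-fold. When the libraries were brought to the same distribution by quantile normalization, 1067 genes were called higher and 1063 lower, so that the excess of higher genes depended on the scaling. The middle 50% of the genes kept lay between −0.38 and 0.48 on the log2 scale. The rises reached further than the falls, with 227 genes higher by more than 3 log2 units and 33 lower by as much. An RPKM over 1 was reached at day 5 only by 734 genes and at day 0 only by 304. Of the genes called higher, 488 exceeded an RPKM of 10 at day 5, and of those called lower, 380 exceeded 10 at day 0. The counting interval lay wholly above 0 for 1255 of the higher genes and wholly below 0 for 822 of the lower ones. Genes with low levels were called higher more often. Among the 1657 genes whose mean RPKM over both libraries was below 2, 431 (26.0%) were higher and 164 (9.90%) lower, against 332 (7.79%) and 312 (7.32%) of the 4261 genes between 5 and 20. As a gene was kept when 1 library alone passed the limit of RPKM 1, a high share of calls among low-level genes is partly built in. Of 132 long intergenic RNAs kept, 40 (30.3%) were higher and 16 (12.1%) lower. Actb (548 at day 0 and 532 at day 5) and Gapdh (247 and 243), which encode β-actin and a glycolytic enzyme, stood at nearly the same level in both libraries.

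**Figure D1:**
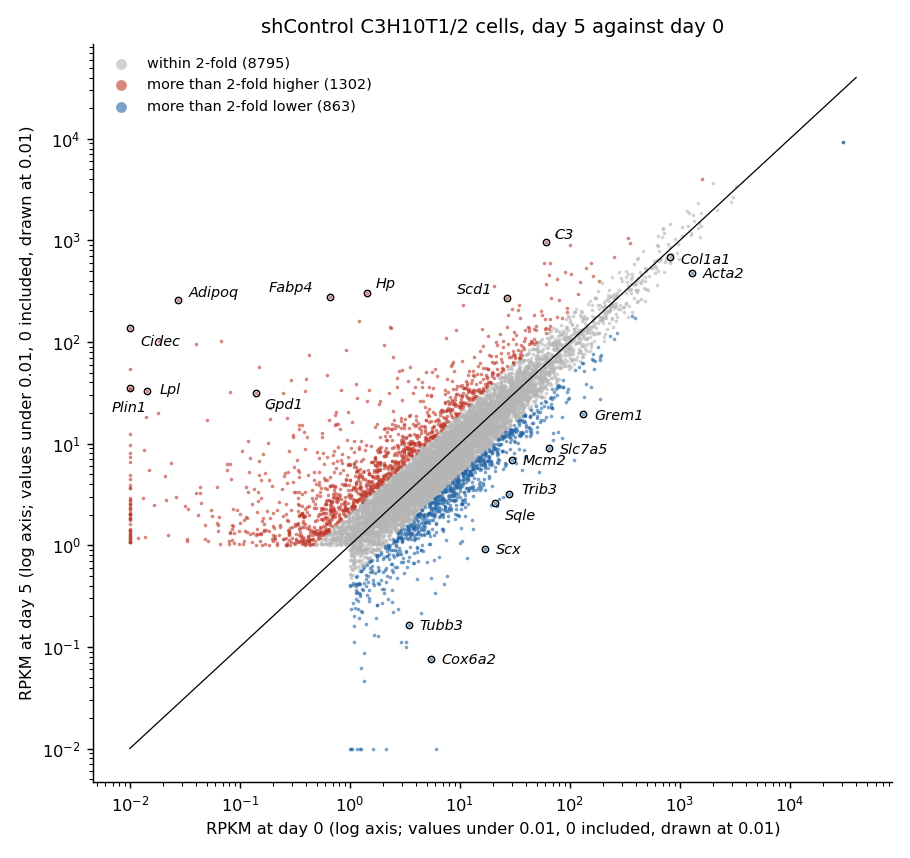
RPKM of each of the 10960 genes kept at day 0 (x axis, log) and day 5 (y axis, log) in shControl cells, 1 point per gene, with values under 0.01 drawn at 0.01 and a line where both days are equal. The 1302 genes more than 2-fold higher (red) spread far from the line at the upper left, where Adipoq, Cidec, Fabp4 and Plin1 lie, whereas most of the 863 lower genes (blue) stay close to it.

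The cell type was examined next with marker genes. Several adipocyte markers had an RPKM under 1 at day 0 and were abundant at day 5. Adipoq (adiponectin, on chromosome 16 from 23146536 to 23158028 of GRCm38) was covered by 1 read at day 0 and 6892 reads at day 5, with an RPKM of 0.0272 and 258 (log2 10.99, interval 10.73 to 18.52). Fabp4 (the adipocyte fatty acid binding protein, chromosome 3, 10204088 to 10208576) had an RPKM of 0.661 at day 0 and 277 at day 5. Cidec (138 at day 5), Plin1 (34.9) and Cfd (54.6) were listed at 0 at day 0, so that against a floor of 3 reads in the day 0 library they were at least 2275-fold, 1440-fold and 447-fold higher at day 5. Others stayed near 0, as Lep, the leptin gene, was listed at 0 in both libraries, and Pck1 and Rbp4, listed at 0 at day 0, had 3 reads and 1 read at day 5. These are bulk libraries, in which a few cells with much RNA and many cells with little cannot be told apart.

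Of 17 mesenchymal stem cell surface markers 13 were kept, 4 higher and 1 lower, with a median of −0.14. The higher share of 30.8% was 15.4% with a pseudocount of 1, after median-of-ratios scaling and without the ribosomal reads. The lower gene was Cspg4 (13.6 and 6.23, log2 −1.11), and Nt5e had 5 and 2 reads. Of these markers and the main collagen genes, Thy1 (25 at day 0 and 22.6 at day 5), Eng (8.73 and 7.28), Col1a1 (809 and 688) and Col1a2 (269 and 301) stayed within 2-fold. Pdgfrb had an RPKM of 38.2 at day 0 and 65.8 at day 5, and Pdgfra, the receptor that marks adipocyte precursors in tissue, rose from 13.4 to 70.8 (log2 2.40, interval 2.35 to 2.46).

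Most markers of other cell types stayed under an RPKM of 1 on both days, but some were well covered. Of the 13 macrophage and blood cell markers 2 were kept, Cd14 (6.61 at day 0 and 3.06 at day 5, with 305 and 102 reads) and Cd68 (1.64 and 1.23). Their defining genes Ptprc, Csf1r and Itgam had between 0 and 5 reads in a library and Adgre1 had none. The summed RPKM of this list was 9.06 at day 0 and 5.28 at day 5. Of the 12 endothelial markers 3 were kept, with Tek at 1.58 and 0.626, Flt1 at 3.36 and 2.90 (1210 and 756 reads) and Eng as given above, while Pecam1 had 3 and 4 reads. The sum of the list was 14.1 and 10.9. Of the 12 skeletal muscle markers, Des (0.350 at day 0 and 1.35 at day 5) and Acta1 (1.39 and 0.168) were kept, Myod1 and Ckm were at 0, and the sum was 1.77 and 2.12. Of the 13 epithelial and neural markers, Tubb3, a neuronal tubulin, fell from 3.42 to 0.166, Cdh1 fell from 1.63 to 0.430, Epcam was at 0, and the sum was 5.55 and 1.33. The part of such cells in the other results was not tested.

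The adipogenic transcription factors came first among the regulators. Of 30 listed, 27 were kept, of which 12 were called higher and 2 lower, with a median change of 0.77 against 0.03 over all genes kept. Pparg (chromosome 6, 115360951 to 115490399) rose from an RPKM of 8.20 at day 0 to 21.7 at day 5 (log2 1.39, interval 1.26 to 1.54). Cebpa (chromosome 7, 35119293 to 35121928) rose from 2.05 to 14.0 (log2 2.71, interval 2.51 to 3.04). The partner of PPARγ, Rxra, rose from 9.35 to 23.8. Cebpd rose from 19.6 to 48.1, whereas Cebpb, which acts earlier in the cascade, had an RPKM of 38.3 at day 0 and 49.3 at day 5. Pparg and Cebpb were already above the detection floor before the inducers were added.

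The largest rise among these factors was that of Nr1h3, which encodes the oxysterol receptor LXRα, from 0.0448 to 2.63 (log2 4.24, interval 4.30 to 8.17). Zfp423, a factor of committed preadipocytes, rose from 0.395 to 3.38 and Ebf1 from 3.97 to 18.8. Srebf1, the regulator of fatty acid synthesis, had an RPKM of 3.75 and 6.31. Not all factors counted as pro-adipogenic moved upward, since Klf5 fell from 1.96 to 0.269 (log2 −2.48) and Klf4 from 93.4 to 32.0 (log2 −1.54). Both are early factors of the cascade.

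Regulators known to hold adipogenesis back were not generally lost. Of 24 listed, 19 were kept, 6 of them higher and 1 lower, with a median of 0.17. Dlk1 (preadipocyte factor 1) rose from 0.823 to 5.09, Sox9 from 59.3 to 133 and the early growth response gene Egr1 from 3.93 to 35.8. The lower one was Id2, an inhibitor of basic helix-loop-helix factors, which fell from 29.1 to 11.1.

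Fat storage genes were among the largest rises of the whole comparison. Of 21 lipid droplet genes 17 were kept, of which 7 were higher and none lower, with a median of 0.96. The perilipins differed in their starting level. Plin1, the coat protein of the large droplets of adipocytes, appeared from 0, whereas Plin4 rose from 13.1 to 52.0 and the widely expressed Plin2 from 30.7 to 62.2 (log2 1.02, interval 0.95 to 1.09, at the limit of the call). G0s2, which inhibits the triglyceride lipase ATGL, rose from 0.388 to 32.8. Cidea, the droplet protein of brown fat, was listed at 0 on both days, and Plin5 had 0 and 2 reads.

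Of 14 kept lipolysis genes 8 were higher and none lower (19 listed, median 1.41). Pnpla2, which encodes ATGL, rose from 7.50 to 109 (log2 3.85, interval 3.74 to 3.99). Lipe, the hormone-sensitive lipase, rose from 0.733 to 15.4 and Mgll, the monoglyceride lipase, from 1.03 to 9.14. Pde3b, through which insulin restrains lipolysis, rose from 3.11 to 10.3. The β3-adrenergic receptor gene Adrb3, listed at 0 at day 0, reached 1.07, at least 32.2-fold above the floor. The lipases of each step from triglyceride to glycerol were thus called higher, and so was Pde3b.

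Fatty acid uptake genes were divided, with large rises of a few. Of 17 kept genes (22 listed) 5 were higher and 2 lower, and the median was 0.10. Lpl, the lipoprotein lipase, had 4 reads at day 0 and 6713 at day 5 (RPKM 0.0143 and 33.1). Cd36, the fatty acid translocase, rose from 0.0209 to 4.84 and Acsl1, the acyl-CoA synthetase of adipocytes, from 2.69 to 36.4. Fabp5 had an RPKM of 25 and 35. Acsl3, another acyl-CoA synthetase gene, moved the other way, from 17.0 to 7.99.

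Of 35 genes of fatty acid and triglyceride synthesis 28 were kept, 10 higher and 2 lower, with a median of 0.43. Gpd1, which makes glycerol 3-phosphate, rose from 0.139 to 31.8 (log2 7.06, interval 6.99 to 8.84). Agpat2 rose from 5.55 to 50.5, Dgat2 from 1.86 to 24.8 and Dgat1 from 1.70 to 6.86. Scd1, the stearoyl-CoA desaturase, rose from 27.0 to 272 (log2 3.33, interval 3.28 to 3.38). Fasn only just passed the 2-fold limit (15.3 and 31.2, log2 1.02), Acaca stood at 6.50 and 7.84 and Acly at 38.1 and 24.8. The desaturases Fads2 (33.1 and 13.7) and Fads3 (39.3 and 16.2) fell.

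Most genes for secreted products of fat cells were higher. Of 22 adipokine and receptor genes 15 were kept, of which 11 were higher and none lower, with a median of 2.02 and a summed RPKM of 89.5 at day 0 and 648 at day 5 over the whole list. Agt (angiotensinogen) rose from 2 reads to 3524 reads (RPKM 0.0397 and 96.4). Retn (resistin) was listed at 0 at day 0 and reached 12.4, at least 174-fold above the floor. Nampt rose from 18.4 to 75 and the receptor gene Adipor2 from 7.84 to 32.2.

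The complement and acute-phase genes showed the highest median of all lists, 3.97, with 20 of 22 kept genes higher and none lower (29 listed). Complement C3 (chromosome 17, 57203970 to 57228136) rose from 60.5 to 956 (log2 3.98, interval 3.95 to 4.02). Haptoglobin (Hp) rose from 1.43 to 304, Apoe from 0.246 to 31.7 and Serpina3n from 0.346 to 15.3. Orm1 was listed at 0 at day 0 and at 34.1 at day 5. The Orm and Serpina3 genes have near-identical copies, so that the division of reads between copies is uncertain. The member with the smallest change was Serpina3g (12.2 and 16.7). The summed RPKM of the list was 206 at day 0 and 1977 at day 5. Some genes were counted in more than 1 list, as Cfd and Lcn2 are both adipokines and acute-phase genes.

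Glucocorticoid-responsive genes were higher at day 5, although dexamethasone was not added after day 2. Of 20 kept glucocorticoid-responsive genes (21 listed) 16 were higher and none lower, with a median of 1.70. Fkbp5 rose from 4.90 to 17.1, Tsc22d3 (GILZ) from 5.22 to 16.2, Per1 from 2.51 to 9.22, and Zbtb16 from 0.00711 to 2.33. Hsd11b1, which regenerates active glucocorticoid inside cells, rose from 0.662 to 3.83. The metallothionein genes Mt1 (42.9 and 127) and Mt2 (47.4 and 134) rose by similar amounts, and their sequences are alike. Dusp1, an early target, stood at 6.28 and 7.44.

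In the insulin and IGF group, 8 of 21 kept genes were higher and 1 was lower (median 0.38, 23 listed). The receptors stayed within 2-fold, with Insr at 3.26 and 4.69 and Igf1r at 7.54 and 4.72. The ligand Igf1 rose from 0.280 to 8.38 (log2 4.48, interval 4.57 to 5.26), Igf2 from 0.0853 to 1.45 and the binding protein gene Igfbp5 from 0.0500 to 17.1. Pik3r1, the regulatory subunit of PI3-kinase, rose from 15.1 to 62.8. Slc2a4, the insulin-regulated glucose transporter GLUT4, was listed at 0 at day 0 and had 246 reads (RPKM 3.66) at day 5, at least 113-fold above the floor. The basal transporter Slc2a1 stood at 11.7 and 13.7. The list of glycolysis and glucose entry, which includes Slc2a4, stayed level as a group, with Pkm at 262 and 188. Of its 21 kept genes 3 were higher (14.3%, against 11.9% of all genes kept) and none lower (median 0.23). Slc2a4 was 1 of the 3. Ldhb, the lactate dehydrogenase subunit of oxidative tissues, was an exception and rose from 3.35 to 41.1.

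**Figure D2:**
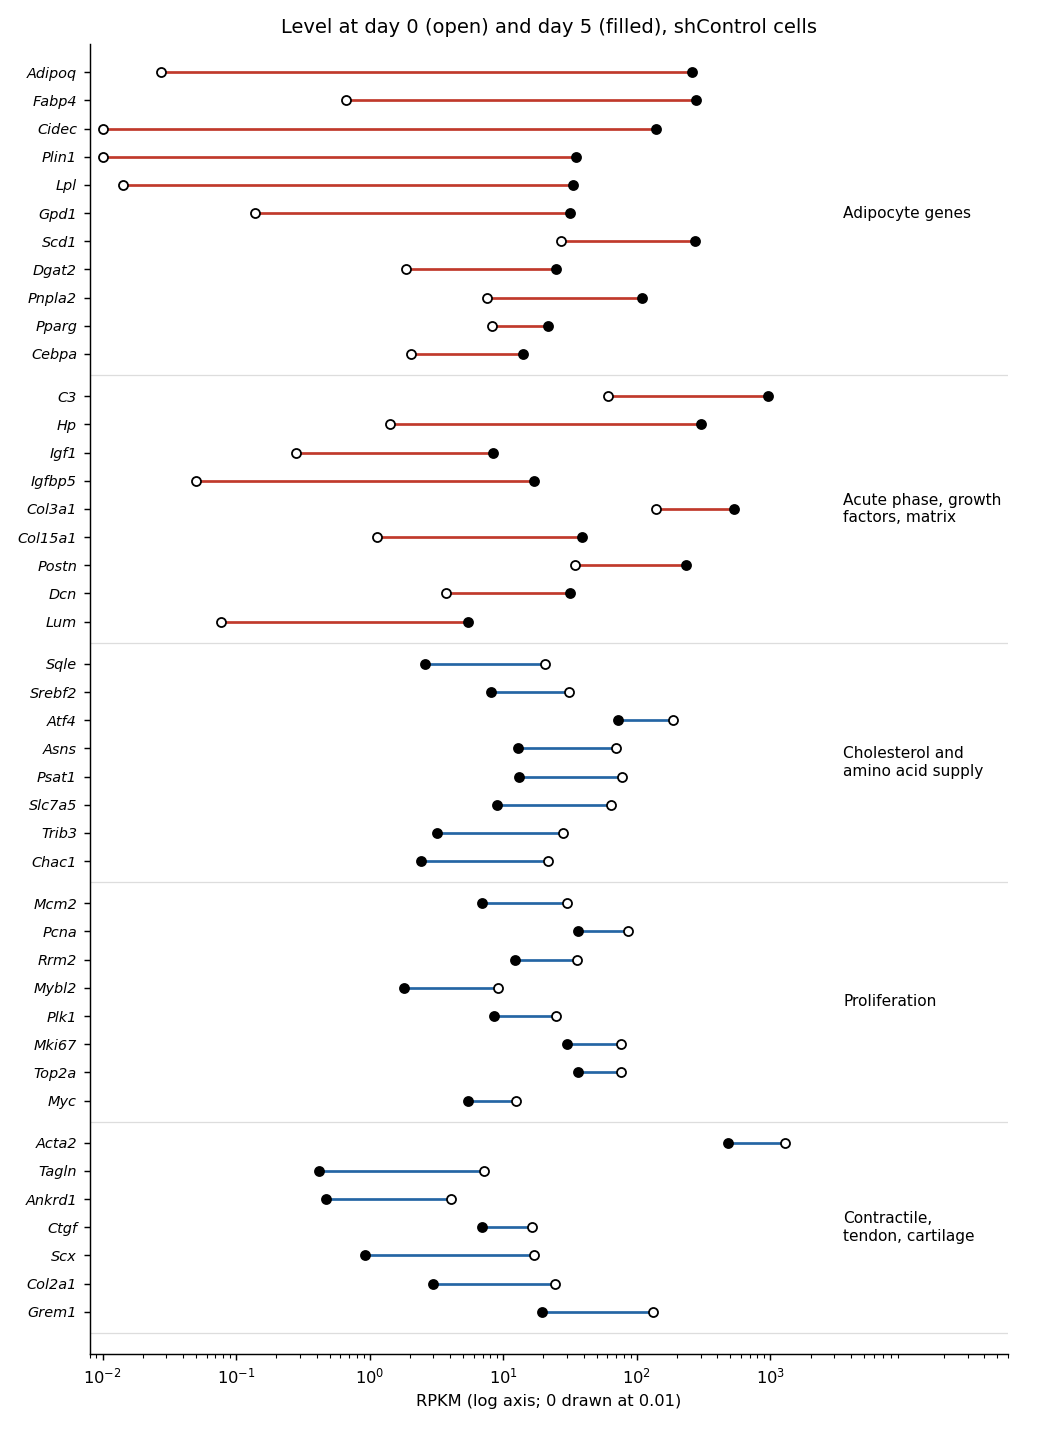
RPKM (x axis, log, with 0 drawn at 0.01) of named genes at day 0 (open circles) and day 5 (filled circles) in shControl cells, with red lines for genes that were higher at day 5 and blue lines for lower ones. The adipocyte genes start over a range from 0 (Cidec, Plin1) to 27.0 (Scd1) and end above an RPKM of 10, whereas the falling genes start from 4.08 (Ankrd1) to 1280 (Acta2) and most remain detectable.

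Mitochondrial genes moved by small amounts. Fatty acid oxidation genes were higher in 10 of 32 cases and lower in none (38 listed, median 0.79), a share of 31.2% that was 18.8% with a pseudocount of 1 or after quantile normalization. Acadm, the medium-chain acyl-CoA dehydrogenase, rose from 15.6 to 48.5 and catalase (Cat) from 43.9 to 103, but Cpt1a, the entry step into mitochondria, stood at 22.2 and 15.1. Of 78 nuclear genes of the respiratory chain only 3 were higher and 1 lower, although the median was 0.28. Examples within 2-fold were Cox4i1 (128 and 198), Ndufb8 (25.5 and 28.2) and Atp5a1 (196 and 219). Most of these exceptions were tissue-specific isoforms. Cox8b (0 and 3.88, 27 reads at day 5) and Cox7a1 (0.140 and 1.26), isoforms of brown fat, heart and muscle, were higher, and so was Ndufv3 (27.9 and 71.7). The muscle isoform gene Cox6a2 fell from 5.47 to 0.0761 (log2 −4.98, interval −11.48 to −3.66). The 13 mRNAs of the mitochondrial genome all stayed within 2-fold with a median of 0.71, from −0.19 for mt-Atp8 to 0.89 for mt-Co1 (1997 and 3709).

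Of 29 genes of the TCA cycle and of pyruvate use 5 were higher (17.2%, and 27.6% at an equal sum of RPKM) and none lower, with a median of 0.41. Pcx, the pyruvate carboxylase that replenishes oxaloacetate, rose from 3.53 to 56.3 (log2 3.96, interval 3.85 to 4.14), and the others were Mpc2, Pdk1, Pdk2 and Pdk4. The citrate synthase gene Cs (35.9 and 28.9), Idh3a (23.3 and 18.6) and Pdha1, a subunit gene of pyruvate dehydrogenase (77.8 and 98.6), stayed within 2-fold. Branched-chain amino acid breakdown was higher in 12 of 22 genes, with a median of 1.17. The transaminase genes of the first step moved in opposite directions, as the cytosolic Bcat1 fell from 10.0 to 1.05 (log2 −3.14) and the mitochondrial Bcat2 rose from 5.03 to 30.1 (log2 2.56). Further down the pathway Bckdha rose from 6.98 to 18.1 and Aldh6a1 from 2.44 to 15.6.

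Most brown fat genes were at or near 0 on both days. Of 23 brown and beige fat genes 4 were kept, Cox8b, Cox7a1, Ppargc1a (0.376 and 2.00) and Tbx1 (3.22 and 4.35). Ucp1, the uncoupling protein, and Prdm16, Cidea, Elovl3 and Ppara were listed at 0 in both libraries, and Dio2 had 1 and 2 reads.

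Of 25 kept cholesterol synthesis genes (26 listed) none was higher and 15 were lower, with a median of −1.23. Sqle, the squalene epoxidase (chromosome 15, 59315077 to 59331192), fell from an RPKM of 20.7 to 2.59 (log2 −2.95, interval −3.18 to −2.82). Hmgcs1 stood at 49.6 and 27.5 and Pmvk at 8.33 and 11.2. Srebf2, which encodes the factor that activates these genes, fell from 31.1 to 8.12 (log2 −1.93).

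A further fall concerned amino acid supply and the targets of ATF4, a transcription factor induced by amino acid shortage and by stress of the endoplasmic reticulum. Of 38 listed genes 35 were kept, 28 of them lower and 1 higher, with a median of −1.63, the lowest of the lists with at least 5 genes kept. Atf4 itself (chromosome 15, 80255184 to 80257541) fell from 187 to 71.9 (log2 −1.38, interval −1.44 to −1.32). Among its known targets, the pseudokinase gene Trib3 fell from 27.9 to 3.21 and Chac1, which degrades glutathione, from 21.7 to 2.43. Asparagine synthetase (Asns) fell from 70.4 to 12.8, and the serine and one-carbon enzymes Psat1 and Mthfd2 from 77.3 to 13.1 and from 26.5 to 6.31. Slc7a5, the large neutral amino acid transporter, fell from 64.1 to 9.03. The 10 aminoacyl-tRNA synthetase genes among the lower ones included Aars (67.2 and 18.9) and Nars (189 and 67.1). The exception was the glutamine transporter gene Slc1a5, which rose from 3.24 to 8.79. Chaperones of the endoplasmic reticulum did not share in the fall, with none of 24 lower and Hspa5 (BiP) at 188 and 233. The 2 higher ones (8.33%, against 11.9% of all genes kept) were Xbp1 and Dnajb9, the latter rising from 10.7 to 35.2.

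ATF4 and C/EBP proteins bind a composite element whose core reads TGATGNAA. RefSeq promoter windows of GRCm38.p6, from 250 bases before to 50 bases after a start site, were on hand for 28 of the 35 kept genes of this list, and 12 of the 28 (42.9%) held these letters on either strand. They occurred in 2.51% of the 8511 kept genes with a window, in 5.19% of the lower genes and in 3.35% of the higher ones. The list was put together from known ATF4 targets, so that a high share of an ATF4 element in it is partly built in. This is a match of letters and says nothing about binding in these cells. Stretches of 29 bases are shown for genes of different branches of the group, a regulator, a synthesis enzyme, a transporter and a charging enzyme, 5′ to 3′ on the strand of the gene, with the element or its reverse complement in capitals.
Trib3, chr2:152344028-152344056, minus strand: tagctcaggtTTACATCAgccgggcgggg
Chac1, chr2:119351039-119351067, plus strand: ttccctgccgTTGCATCActcctgccagg
Asns, chr6:7693214-7693242, minus strand: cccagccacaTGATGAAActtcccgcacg
Slc7a11, chr3:50443661-50443689, minus strand: ctcatgtggcTGATGCAAacctggagaat
Tars, chr15:11399655-11399683, minus strand: aggagtcccgTTGCATCAgctggttagct
Slc7a11, the cystine transporter gene, fell from 2.56 to 0.613, and Tars, a threonyl-tRNA synthetase gene, from 68.3 to 22.2. The element shown lies in the forward sense in Asns and Slc7a11 and in the reverse sense in the others. Slc7a11 also holds a match in the reverse sense, which is not shown.

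Most proliferation genes were lower at day 5. None of the 49 DNA replication genes was higher and 39 were lower (median −1.41), and none of the 69 mitosis genes was higher and 62 were lower (median −1.28). The changes of both lists lay between −2.26 (Mybl2, which fell from 9.07 to 1.82) and −0.32 (E2f1, 9.14 and 7.32). The helicase subunit gene Mcm2 (chromosome 6, 88883474 to 88898780) fell from 29.8 to 6.95 (log2 −2.08, interval −2.20 to −2.0), the sliding clamp gene Pcna from 86.4 to 36.2 and Rrm2, a ribonucleotide reductase subunit, from 35.4 to 12.2. Among mitotic genes Plk1 fell from 24.9 to 8.45, Cdk1 from 27.3 to 12.2 and Mki67 from 76.7 to 30.1. Although lower, these mRNAs remained well above the detection floor at day 5.

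The brakes of the cell cycle did not show a matching rise. Of 24 kept CDK inhibitor and p53 target genes 4 were higher (16.7%) and 3 lower (12.5%), with 27 listed and a median of −0.16. The shares over all genes kept were 11.9% and 7.87%. Cdkn1a (p21) stood at 30.6 and 27.6, Cdkn1b (p27) at 16.6 and 20.9, and Cdkn2c (p18) at 12.7 and 12.5. Btg2, an antiproliferative gene, rose from 2.44 to 10.9, while Rbl1 (p107), which is itself a target of E2F, fell from 13.4 to 4.55.

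E2F sites of the forms TTTGGCGC and TTTCCCGC were each found in 7 of the 40 replication genes with a promoter window (17.5%), on either strand, against 1.16% and 2.50% of the kept genes. The CCAAT box, which is common in promoters, was found in 44 of 57 mitosis genes (77.2%) and in 43.9% of the kept genes. These motifs were picked for these lists as known elements of such genes, so that a high share is partly built in. Here too a match of letters says nothing about binding in these cells. Examples from the licensing factors and the polymerase are shown, with the E2F letters or their reverse complement in capitals.
Mcm5, chr8:75109350-75109378, plus strand: aagaactttcGCGCCAAAacgtccagcct
Mcm6, chr1:128359797-128359825, minus strand: ggcgtatgctTTTGGCGCgaaaagtgcgt
Cdc6, chr11:98908003-98908031, plus strand: ccggtggagaGCGGGAAAtcgcctggggt
Pola1, chrX:93632275-93632303, minus strand: tcatcacaggGCGCCAAAtgcactcccgc
These genes fell from 31.9 to 7.16 (Mcm5), from 54.6 to 17.1 (Mcm6), from 6.86 to 1.97 (Cdc6) and from 11.9 to 4.48 (Pola1).

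In each of the other groups searched, 1 gene held the letters. The sterol element core TCACCCCAC was found in 1 of 19 cholesterol synthesis genes (5.26%), Hmgcs1, and in 0.670% of the kept genes. The C/EBP letters TTGCNNAA were found in 1 of 10 adipokine genes (10.0%), Lcn2, and in 9.68% of the kept genes. They occurred in 13.6% of the higher genes and in 8.96% of the lower ones.

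Some genes of ribosome production were lower. Of 44 ribosome biogenesis genes 17 were lower and none higher (median −0.85), among them Fbl (fibrillarin), which fell from 16.7 to 6.37, Lyar, from 31.7 to 10.3, and Myc, a driver of this programme, from 12.4 to 5.41. Npm1 stood at 416 and 251. None of the 81 cytosolic ribosomal protein genes kept passed the 2-fold limit in either direction, and the lowest change was −0.86 (Rps2) and the median −0.09. These genes include some of the most abundant mRNAs, such as Rplp1 (2939 and 2386), and many have processed pseudogenes that could take some of their reads.

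**Figure D3:**
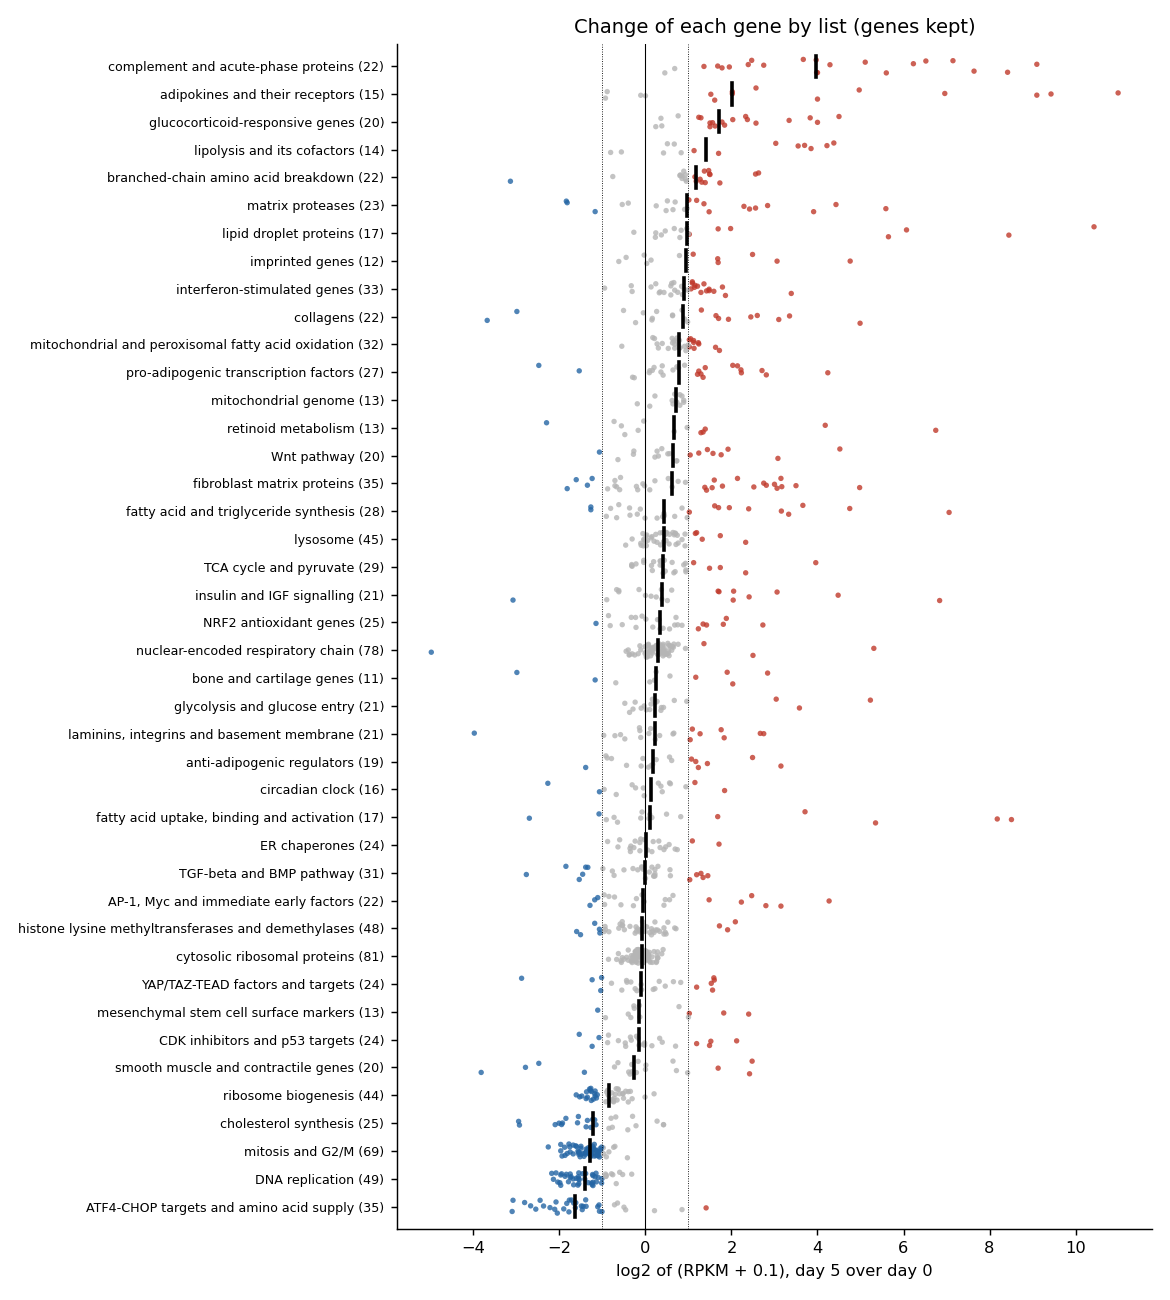
Change of each kept gene (x axis, log2 of RPKM + 0.1 at day 5 over day 0) by gene list (y axis, number of genes kept in brackets), for lists with at least 5 kept genes, with a black bar at the median and dotted lines at 2-fold. Lists are ordered by their median, from −1.63 for ATF4 targets to 3.97 for complement and acute-phase genes, and red and blue points mark genes past 2-fold.

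Genes of the extracellular matrix changed in both directions. Of 30 collagen genes 22 were kept, 9 higher and 2 lower (median 0.88). The most abundant fibrillar collagen genes Col1a1 and Col1a2 stayed level, as given above, whereas Col3a1 rose from 140 to 535, Col6a3 from 42.1 to 137 and Col15a1, a basement membrane collagen, from 1.13 to 38.9 (log2 4.99, interval 4.90 to 5.32). The basement membrane collagen genes Col4a1 (113 and 211) and Col4a2 (91.5 and 142) stayed within 2-fold. Col8a1 fell from 7.62 to 0.502 and the cartilage collagen gene Col2a1 from 24.5 to 2.99. Among the laminin and integrin genes 7 of 21 were higher (33.3%, and 19% with a pseudocount of 1) and 1 lower. Itga8 rose from 0.117 to 1.36 and Itgb7 fell from 3.25 to 0.112.

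In the fibroblast matrix list 15 of 35 genes were higher and 4 lower (median 0.62). Decorin (Dcn) rose from 3.72 to 31.8 and lumican (Lum) from 0.0767 to 5.47, and osteoglycin (Ogn) and asporin (Aspn) reached 600 and 454 from 66.5 and 64.9. Periostin (Postn) rose from 34.5 to 233. The elastic fibre gene Fbln5 fell from 96.9 to 27.4, and tenascin C (Tnc) stood at 4.71 and 2.51. Fibronectin (Fn1, 438 and 385) and lysyl oxidase (Lox, 556 and 533) did not pass the limit. Of 23 matrix protease genes kept, 11 were higher and 3 lower, with Mmp3 rising from 0.271 to 17.8 and Mmp2 from 65.6 to 168.

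Several contractile and tendon genes were among the falls. Scx (scleraxis, the tendon factor, chromosome 15, 76457452 to 76459458) had the largest fall among coding genes with an RPKM of at least 10 on either day, from 17.1 to 0.928 (log2 −4.07, interval −4.73 to −3.73). Acta2 (smooth muscle actin, chromosome 19, 34241090 to 34255590) fell from 1280 to 478 and Tagln (transgelin) from 7.19 to 0.416. The smooth muscle list as a whole was divided, with 3 of 20 kept genes higher and 4 lower (median −0.26), since Lmod1 rose from 2.39 to 13.8 and Tpm1 stood at 164 and 125. The targets of YAP and TAZ, which respond to cell tension, were divided too (5 of 24 higher, 4 lower). Ankrd1 fell from 4.08 to 0.469 and Ctgf from 16.4 to 6.91, while Cyr61 rose from 17.9 to 54.4.

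Growth factor pathways that bear on the choice of lineage changed in both directions. In the TGF-β and BMP list 5 of 31 genes were higher (16.1%) and 6 lower (19.4%), against 11.9% and 7.87% of all genes kept. The BMP antagonist gene Grem1 fell from 133 to 19.5 (log2 −2.77, interval −2.85 to −2.70), Bmp4 from 63.2 to 23.0, and Inhba, an activin subunit, from 4.98 to 1.31. In the Wnt list 8 of 20 genes were higher and 1 lower (45 listed, median 0.64), a share of 40% that was 24.4% without a limit on RPKM. Sfrp2, a secreted Wnt binding protein, rose from 0.645 to 17.0, while Wnt5a stood at 2.09 and 2.74 and Notum fell from 2.09 to 0.945. Bone and cartilage genes were sparse, with 11 of 29 kept, of which 4 were higher (Matn2 rose from 8.73 to 62.9) and 2 lower. Spp1 (osteopontin) stood at 206 and 221.

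Of 33 kept interferon-stimulated genes 15 were higher and none lower (47 listed, median 0.90). The higher share of 45.5% fell to 24.2% with a pseudocount of 1. Iigp1, an interferon-inducible GTPase, rose from 0.950 to 10.9 (log2 3.39) and Isg15 from 1.54 to 3.70, the latter with a wide interval from 0.60 to 1.95. Ifit1 (11.3 and 17.0) and Ifit2 (25 and 12.9) did not pass the limit. Immediate early factors were 6 higher and 3 lower of 22, and Fos rose from 0.0319 to 2.44.

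In smaller groups a few members passed the limit. Antioxidant genes were 6 higher and 1 lower of 25, with Gsta4, which detoxifies lipid aldehydes, rising from 27.5 to 183 and the ferritin gene Fth1 from 1582 to 3996. Lysosomal genes were 5 higher (11.1%, near the 11.9% of all genes kept) and none lower of 45 (median 0.42), with Ctsd at 229 and 322. In retinoid metabolism Aldh1a7 rose from 0.291 to 42.1 and Aldh1a1 from 0.388 to 8.77, a pair of similar genes between which reads may be shared, and Rdh10 fell from 4.67 to 0.871. Of 24 imprinted genes 12 were kept, 6 higher and none lower, among them H19, which rose from 0.382 to 12.9. The share of 50% was 30% without a limit on RPKM and 28.6% with a limit of 5. Clock genes were 2 higher and 2 lower of 16 (12.5% each way, against 11.9% and 7.87% of all genes kept), and as each day is 1 time of harvest, a phase of the clock cannot be told apart from a change of level.

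The histone lysine methyltransferases and demethylases, to which the factors studied in this series belong, were mostly level. Of 48 kept genes 3 were higher and 5 lower (median −0.07). The lower share was 10.4%, against 7.87% of all genes kept. It ranged from 2.08% with a pseudocount of 1 to 16.7% after median-of-ratios scaling. Kmt2a, which encodes MLL1, stood at 5.17 and 5.27, and Nfib, the transcription factor gene, at 9.92 and 17.0. Kdm4d was below the limit for inclusion, with 2 reads at day 0 and 13 at day 5. Ezh2, the polycomb methyltransferase of dividing cells, fell from 10.9 to 5.11 (log2 −1.07), while its paralogue Ezh1 rose from 5.93 to 19.7 (log2 1.72, interval 1.63 to 1.83). Kdm7a rose from 1.18 to 5.36 and Nsd2 fell from 9.35 to 3.01.

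Some of the largest changes lay outside the gene lists, which hold 1151 of the genes kept. Among coding genes with an RPKM of at least 10 on either day, the largest rises outside the lists included Cyp2f2 (a cytochrome P450, 0.0185 and 102), Fam107a (an actin-associated protein, 0.0679 and 102), Sult1a1 (a sulfotransferase, 0.149 and 57.2), Rgcc (0.0818 and 32.4), Map7d2 (0.0182 and 20.1) and Rarres2 (chemerin, a secreted adipokine, 0.0141 and 18.2). The falls outside the lists included the growth-associated chromatin proteins Hmga2, from 22.5 to 2.86, and Hmga1, from 84.5 to 11.3, of which the latter has a near-identical copy. Prl2c2 (proliferin, a member of a family of near-identical genes) fell from 108 to 6.88, the cyclic GMP-dependent kinase gene Prkg2 from 11.6 to 0.752, Serpinb9b from 52.0 to 5.31, Hspa4l from 10.5 to 1.10 and Rin1 from 13.3 to 1.44.

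The same genes were followed in the knockdown lines, each of which also had 1 library per day, so that no difference between lines could be tested. As these lines came from isolated clones, a difference between clones cannot be told apart from an effect of the shRNA. Of the 1302 genes higher in control cells, 938 (72.0%), 768 (59.0%) and 1037 (79.6%) were over 2-fold higher in shKDM4D, shNFIB and shMLL1 cells. In these lines 10.9%, 10.2% and 17.9% of all kept genes were higher. Of the 863 genes lower in control cells, 610 (70.7%), 318 (36.8%) and 454 (52.6%) were lower, against 7.41%, 4.24% and 6.21% of all kept genes. The median change of the control-higher genes was 1.66 in control cells and 1.45, 1.19 and 1.80 in shKDM4D, shNFIB and shMLL1 cells. The control values chose these genes, so that a smaller median in the other lines is partly built in.

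Adipocyte genes varied in how far they rose in the other lines. Adipoq, at 258 in control cells at day 5, reached 9.01 in the shKDM4D line, 0.229 in the shNFIB line and 0.570 in the shMLL1 line. Fabp4, at 277 in control cells, had 9.34, 0.380 and 1.75. Agt, changed by 9.43 in control cells, changed by 6.23, 3.27 and 7.53 in the same order, and Plin4, changed by 1.98, by 1.91, 1.46 and 2.37. Fam107a, at 102 in control cells, reached 93.1, 27.6 and 58.9. The glucocorticoid-responsive genes had medians of 0.94, 0.85 and 1.62 in the 3 lines and the complement and acute-phase genes 2.75, 2.40 and 4.05. The falling lists were not alike either. The median of mitosis genes was −1.61, −1.19 and −1.01, that of cholesterol synthesis −1.02, −0.33 and −1.32, and that of the ATF4 list −1.19, 0.41 and −0.15. For Trib3 the RPKM at day 0 was 27.9 in control cells and 24.2, 2.29 and 4.0 in the same order of lines. At day 5 it was 3.21 in control cells and 6.71, 9.33 and 17.3 in these lines. Interferon-stimulated genes had medians of 1.54, 3.98 and 6.11, so that the median was lowest in the control cells.

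**Figure D4:**
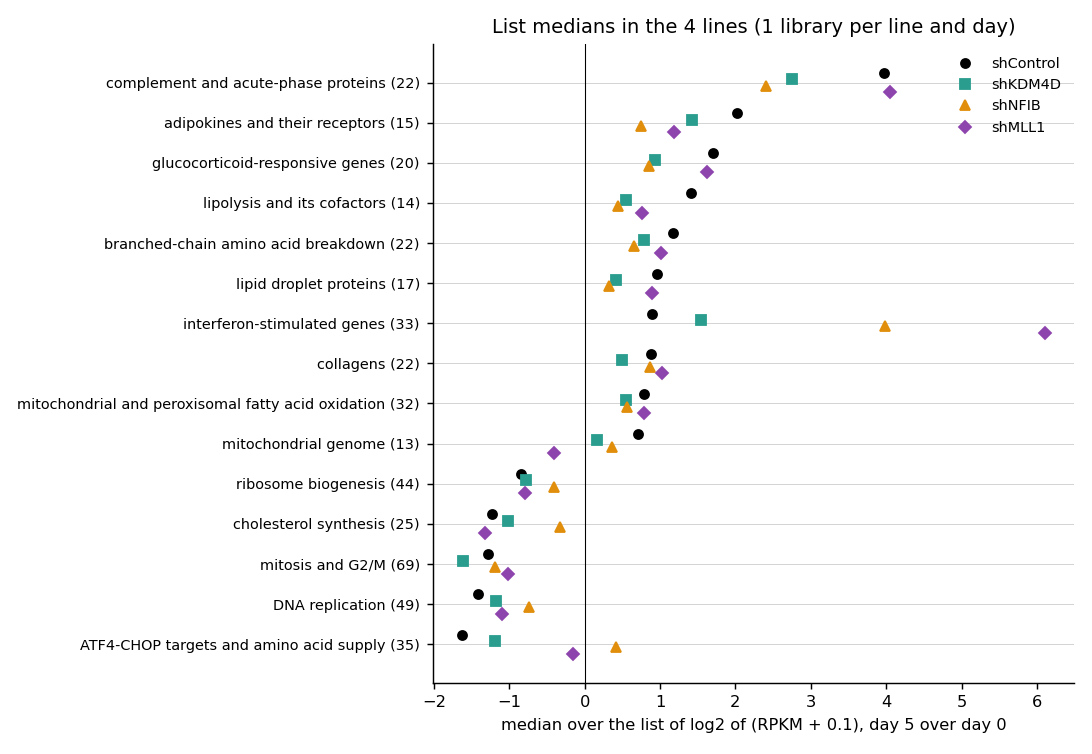
Median over each list of the log2 change from day 0 to day 5 (x axis) in shControl, shKDM4D, shNFIB and shMLL1 cells (symbols), for 15 gene lists (y axis, number of genes kept in brackets), with 1 library per line and day. The control cells have the highest median for adipokines (2.02) and the lowest for ATF4 targets (−1.63), and the lowest median of the 4 lines for interferon-stimulated genes (0.90).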

How the data were processed

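RNA-seq was done on C3H10T1/2 cells, and the shControl libraries of day 0 and day 5 were compared (8 libraries in the series, 15800000 to 38200000 mapped reads). The authors mapped SMARTer stranded reads (HiSeq 2500) to GRCm38 in version 11.0.1 of CLC Genomics Workbench, with a cost of 2 for a mismatch and of 3 for an insertion or deletion and fractions of 0.8 for length and similarity, and deposited RPKM values. The strand setting of the counting is not given in the sources used here. The study's methods name quantile normalization, but the deposited values were whole multiples of 1 read, within 0.02, for 96.2% and 96.3% of genes once multiplied by the exon length of GENCODE M21, so they were used as RPKM, and reads and depth were recovered in this way.

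Genes over RPKM 1 on either day were kept, 0.1 was added, and changes past 2-fold were called without a test. Of 41325 symbols, 40829 matched 1 GENCODE gene. The median gene kept was covered by 883 reads at day 0 and 639 at day 5, and reads were recovered for 10645 of the genes kept, the others having no interval. The genes named were the lead genes and the extreme genes of 47 gene lists, the 15 largest rises and falls among coding genes with an RPKM of at least 10, the 10 highest levels per library and the members of lists with at most 3 genes kept. Further examples from the lists were added after their values were seen. The comparison, the lists and the promoter motifs were chosen with earlier results of these data known. Alternatives were other RPKM limits, pseudocounts and scalings. Calling was tried on simulated reads with counting error only, in which the changed genes moved far past the 2-fold limit. That trial does not cover variation between cultures or changes near the limit. Python 3.11.15, numpy 2.4.6, pandas 2.3.3, scipy 1.17.1 and matplotlib 3.10.9 were used. Ddit3 and Aldoa were not analysed here. Some genes of the lists are not reported by name here.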

Additional observations from a re-analysis of the deposited data

Results flagged for a closer look

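Only the genes named by rule were screened here, without the examples added later. Of these, 4 moved past 2-fold in opposite directions in control cells and in a knockdown line between day 0 and day 5. The difference was not tested in any of them, as each line has 1 library per day. Trib3 fell by 3.08 on the log2 scale in control cells and was higher by 1.98 in shNFIB and by 2.08 in shMLL1 cells. Chac1 changed by −3.10 in control and by 1.85 in shNFIB cells. Both are known ATF4 targets. Tek, an endothelial receptor gene with 198 and 57 reads in the control libraries, changed by −1.21 in control and by 1.24 in shMLL1 cells. Cox6a2, the muscle isoform of a cytochrome oxidase subunit, changed by −4.98 in control and by 3.05 in shMLL1 cells. It had 99 reads and 1 read in the control libraries, and its RPKM in shMLL1 cells was 0.154 at day 0 and 2.01 at day 5. Each change thus rests on 1 low value.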

How the results depend on the processing

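Without a limit on RPKM 2295 genes were called higher and 1241 lower, and with a limit of RPKM 5 the counts were 709 higher and 571 lower. Under the other settings both counts stayed within 1.5 times those reported, from 902 to 1454 higher and from 581 to 1063 lower. The excess of higher genes depended on the scaling. They made up 60.1% of all calls as reported, 50.1% after quantile normalization, 52.6% after median-of-ratios scaling, 66.7% at an equal sum of RPKM and 52.3% without the reads of AY036118 and CT010467.1, a setting chosen after seeing the data. The median change of all genes was −0.06, −0.08, 0.11 and −0.08 in these settings. Among 1518 values of the genes named by rule the change of AY036118 reversed, to 0.01 after quantile normalization, which ties the top ranks of both libraries. A further 464 values were counted as moved. For genes with a finite interval this means by more than their counting error, and for genes without such an interval any change was counted. Fasn and Plin2 lay at the limit of the call and passed it in some scalings only, with 0.91 each without the ribosomal reads. Of 466 shares of list members called, 9 left the exact binomial interval of the reported share. That interval treats the genes of a list as independent and is wide for short lists. A change of more than 1.5 times was seen in 33 shares, in 18 of 47 lists, 13 of which had at least 5 genes kept. With a pseudocount of 1 the shares of fatty acid oxidation, laminin and integrin, mesenchymal, interferon-stimulated, clock and histone lysine enzyme genes changed in this way, and without a limit on RPKM those of brown fat genes (75% and 28.6%), Wnt, retinoid (38.5% and 23.8%) and imprinted genes. With a limit of RPKM 5 the respiratory chain genes went from 3.85% to 1.33% and the immediate early factors from 27.3% to 17.6%. The ER chaperones had 4.17% higher in place of 8.33% after median-of-ratios scaling. No paired analysis was possible because the comparison has 1 control library on each day, and no replicate could be left out. Depth limits genes at or under 3 reads in a library, as for Lep, Kdm4d at day 0, Ptprc, Myod1 and Epcam.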
